A study of Mus musculus with 14 samples.

Results

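Alternative activation is the macrophage state induced by interleukin 4 and interleukin 13, and its genes were followed here together with the enzymes that compete for arginine. The group held 8 genes, taken by symbol from a deposited table of 43432 mouse genes: Il4ra, Il13ra1, Arg1, Arg2, Nos2, Chil3, Retnla and Tgm2. All 8 were found, and 7 of them passed the filter on low values. RNA-seq was made from lung cells of male 129S1 mice aged 10 to 12 weeks, which were given bleomycin, a DNA-damaging drug that injures the lung, or water into the trachea. The labelled dose was 3 U/k. All cells were sorted as SiglecF-positive and CD11c-positive, the surface pair that marks alveolar macrophages, and were split by MHC class II (MHCII) into high and low. There were 5 groups in 14 libraries. MHCII-low cells came from controls given water (2 libraries, replicates 1 and 3 by their labels), from mice 2 weeks after bleomycin (3 libraries) and from mice 4 weeks after it (3 libraries). MHCII-high cells came from mice 2 weeks and 4 weeks after bleomycin, with 3 libraries each. Control cells with high MHCII are not analysed here, so an MHCII-high value has no untreated counterpart at its own MHCII level. The labels do not say whether a library came from a mouse or from a pool of mice, so p-values measure the spread between these libraries, part of which may be technical.

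Interleukin 4 and interleukin 13 both signal through a receptor made of the Il4ra and Il13ra1 chains, which activates the transcription factor STAT6. In mouse macrophages this pathway is known to induce Arg1, Chil3 and Retnla, the classic markers of the alternative state, and Tgm2. Arginase splits arginine into ornithine and urea, while the inducible nitric oxide synthase Nos2, a marker of classical activation, turns the same amino acid into citrulline and nitric oxide.

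The depth recovered from the steps of the values was 15106415 to 88059675 reads per library, and mitochondrial ribosomal RNA took 3.12% to 28.99% of them. The class II gene H2-Aa lay at 27604 to 38503 normalized counts in 2-week and 16283 to 25311 in 4-week MHCII-high libraries, against 127.8 to 1810.4 in the MHCII-low ones. Both sort genes were read in all 14 libraries, Siglecf at 3056 to 9551 and Itgax, the CD11c gene, at 25185 to 44133 normalized counts. On the second principal component over the genes tested (12.3% of the variance), replicate 3 of the 4-week MHCII-high cells lay at -146.4 and the other 13 libraries between -44.7 and 73.5. Where a member's limma difference given below rests on this library, fits without it are covered too.

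Promoter sequences were matched for 4 of the 8 genes. The 250 bases before the start site are shown for Retnla and Chil3, the pair of STAT6-inducible secreted products whose levels moved in opposite directions between the MHCII levels. Both come from RefSeq on GRCm38.p6 and run 5′ to 3′ along the strand of the gene. The Retnla window is chr16:48842359-48842608 on the forward strand and that of Chil3 is chr3:106167565-106167814 on the reverse strand. The deposited table starts Retnla at 48842552, so the end of its window lies within the span of the gene in that table. Capitals mark the match to a STAT motif, TTC and GAA with a spacer of 4 bases in Retnla and of 3 bases in Chil3.
Retnla: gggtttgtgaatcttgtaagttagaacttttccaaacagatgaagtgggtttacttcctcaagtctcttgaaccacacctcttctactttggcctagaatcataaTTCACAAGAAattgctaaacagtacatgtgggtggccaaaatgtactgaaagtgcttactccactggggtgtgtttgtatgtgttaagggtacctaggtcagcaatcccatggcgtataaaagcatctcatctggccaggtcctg
Chil3: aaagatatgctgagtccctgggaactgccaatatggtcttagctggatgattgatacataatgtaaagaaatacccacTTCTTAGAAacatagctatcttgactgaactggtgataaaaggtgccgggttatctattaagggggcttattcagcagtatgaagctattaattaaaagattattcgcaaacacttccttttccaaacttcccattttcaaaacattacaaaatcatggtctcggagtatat
The palindrome with a spacer of 4 bases, the form known for STAT6, stood at bases -145 to -136 of Retnla. Of 32851 promoter windows searched, each the 250 bases before the start, 5.85% held it. The form with a spacer of 3 bases stood at -172 to -164 of Chil3 and in 7.02% of the windows. The palindromes read the same on both strands, so 1 search covers both, and the spacers differ, so no match overlaps another. A TATA box, TATAAA, stood at -30 to -25 of Retnla along the gene's strand. Read on either strand, it stood in 12.4% of the windows. The windows of Il4ra and Il13ra1 held none of the 3 motifs. A match describes letters only and does not show binding, and whether the motifs bear on the levels was not tested.

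Chil3 dominated the group by level. Per kb of exon, its median over the 14 libraries was 133000 normalized counts, and it ranked between 3 and 6 of 14933 protein-coding genes in each library. Without the mitochondrial ribosomal RNAs, this secreted chitinase-like lectin alone took 0.547% to 0.965% of all counts. Tgm2 followed with a median of 2750 normalized counts per kb, then Il4ra with 1490 and Il13ra1 with 1180. The remaining 4 genes were much lower. Retnla had a median of 151 per kb, Arg2 of 66.9 and Arg1 of 44.6, and the median of Nos2 was 0. Chil3, at 100021 or more per kb, lay above every other member. The ranges of all other neighbours in this order overlapped between libraries: Tgm2 (1471.2 to 4394.0), Il4ra (881.7 to 1988.8), Il13ra1 (634.9 to 1447.8), Retnla (8.0 to 807.4), Arg2 (14.5 to 214.0), Arg1 (9.4 to 351.3) and Nos2 (0.0 to 22.8). The plot by library shows these levels on the linear scale of each gene.

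**Figure D1:**
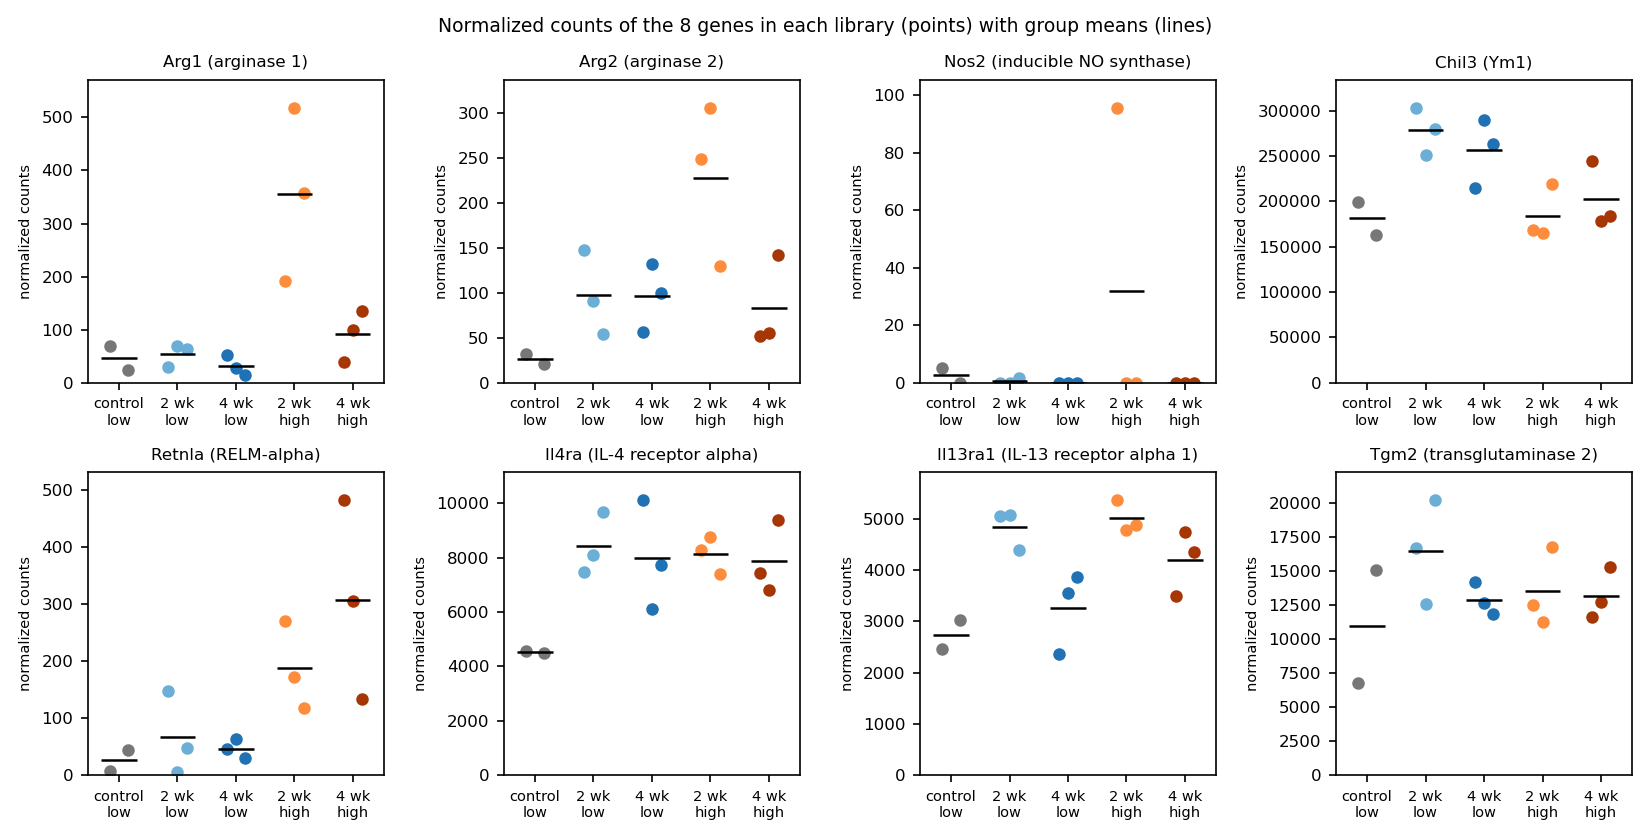
Normalized counts (linear axis from 0, a separate scale per panel) of the 8 genes in 5 groups, by MHCII level and weeks after bleomycin. Points are libraries, drawn left to right as replicates 1 to 3, and lines are group means. Arg1 is highest in the 2-week MHCII-high libraries (191.4 to 518.5), and both control libraries lie below every bleomycin library for Arg2 and Il4ra.

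Differences were tested with limma on log2(normalized counts + 1), with Benjamini-Hochberg adjustment over 17390 genes and a threshold of 0.05. Each log2 fold change is given with its standard error, and all adjusted p-values of genes are limma's unless another tool is named. At 2 weeks, 1 of the 7 tested members, Arg1, differed between MHCII-high and MHCII-low cells, where 2.87% of all genes tested did. At 4 weeks none of the 7 passed (2.5% of all genes). The mean difference over both times gave 3 of 7, Arg1 and Retnla higher and Chil3 lower, beside 7.21% of all genes. In MHCII-low cells 2 weeks after bleomycin, 2 of 7 passed against control, Il4ra and Il13ra1, both higher (1.91% of all genes). At 4 weeks 0 of 7 passed against the same controls (0.046% of all genes). Between 2 and 4 weeks none passed within MHCII-low cells (0.857% of all genes) or within MHCII-high cells (1.07%). The interaction asks whether the difference between MHCII levels changed from 2 to 4 weeks, and gave no member and 0% of all genes: 987 genes had an unadjusted p under 0.05, edgeR called 0 and DESeq2 called 60.

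**Figure D2:**
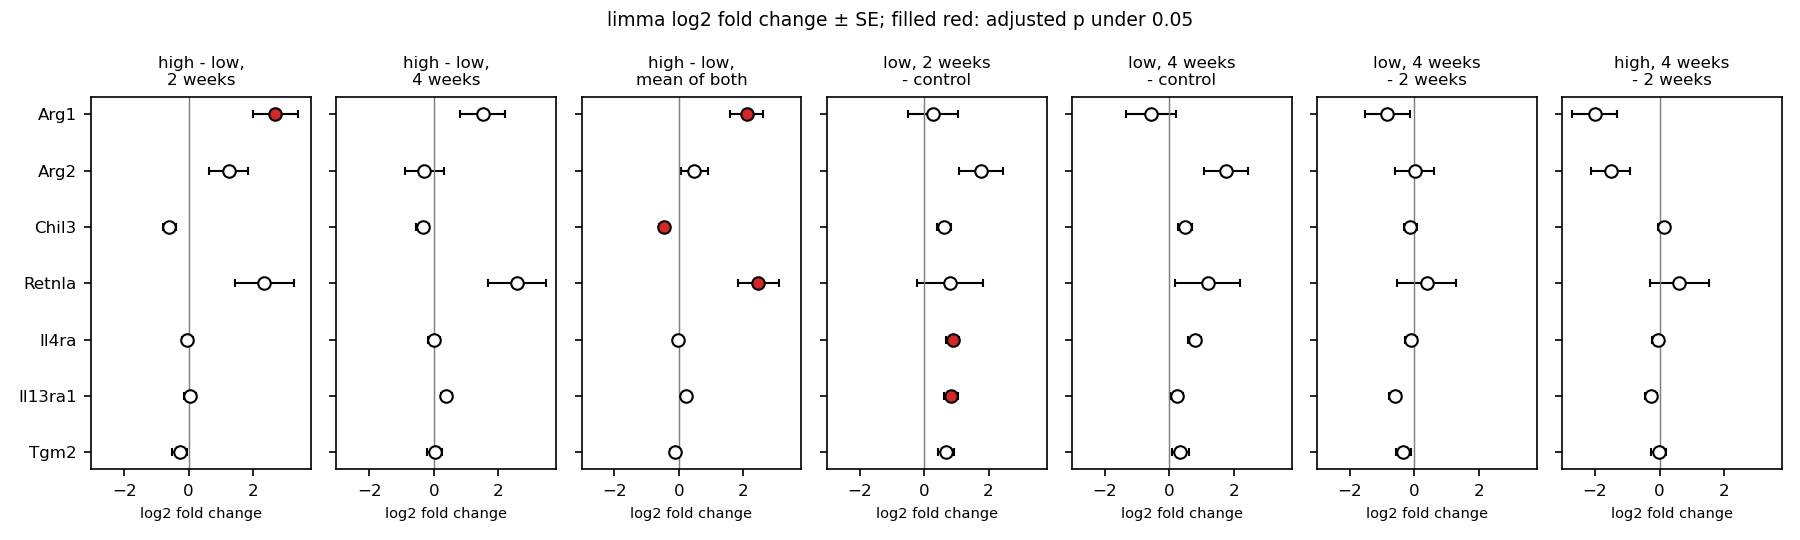
limma log2 fold change with its standard error (x axis) for the 7 tested genes (y axis) in 7 comparisons. Filled red points have an adjusted p under 0.05: Arg1 at 2 weeks, Arg1, Chil3 and Retnla in the mean of both times, and Il4ra and Il13ra1 in 2-week MHCII-low cells against control.

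The receptor chains passed the test against control at 2 weeks, and neither passed between the MHCII levels. Coordinates are on mm10. Il4ra encodes the chain shared by both interleukins (ENSMUSG00000030748, chromosome 7, 125552120 to 125579474, forward strand, with the antisense gene Gm44876 inside its span). It had 4555.6 and 4489.6 normalized counts in control replicates 1 and 3. After bleomycin the MHCII-low libraries held 7479.7, 8092.4 and 9686.4 at 2 weeks and 10126.9, 6094.2 and 7716.9 at 4 weeks. The MHCII-high libraries held 8294.2, 8766.1 and 7377.8 at 2 weeks and 7430.0, 6823.4 and 9399.8 at 4 weeks. The control libraries were the lowest 2 of the 14, and the 4 bleomycin groups overlapped each other. Against control, Il4ra rose in 2-week MHCII-low cells by a log2 fold change of 0.89 ± 0.20 (adjusted p 0.019), a ratio of means of 1.86. At 4 weeks the ratio was 1.76, but the log2 difference of 0.79 ± 0.20 did not pass (adjusted p 0.26). Both comparisons use the same 2 control libraries. Between MHCII levels the log2 difference was -0.04 ± 0.18 at 2 weeks (adjusted p 0.95) and 0.00 ± 0.18 at 4 weeks (adjusted p 1.0), or -0.13 ± 0.19 (adjusted p 0.79) without 4-week MHCII-high replicate 3.

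Il13ra1, the chain that pairs with Il4ra and binds interleukin 13 (ENSMUSG00000017057, chromosome X, 36112110 to 36171259, forward strand), had 2456.0 and 3019.2 normalized counts in the controls. The 2-week MHCII-low libraries held 5058.8, 5078.1 and 4401.0, all above both controls, and the 4-week ones 2356.6, 3550.1 and 3860.6, which overlapped the controls. Its rise at 2 weeks was a log2 fold change of 0.83 ± 0.21 (adjusted p 0.038), a ratio of means of 1.77. At 4 weeks the log2 difference from control was 0.23 ± 0.21 (adjusted p 0.94). From 2 to 4 weeks the MHCII-low difference was -0.60 ± 0.18 (adjusted p 0.20), and Il13ra1 was 1 member of 7 whose 4-week libraries all lay below the 2-week ones, as 6.76% of all genes did. MHCII-high libraries held 5374.2, 4777.5 and 4889.6 at 2 weeks and 3500.6, 4742.9 and 4362.2 at 4 weeks, so the 4-week values were again all lower, though the test did not pass (-0.26 ± 0.18, adjusted p 0.57). Without 4-week replicate 3 the difference was -0.30 ± 0.21 (adjusted p 0.54). Between MHCII levels the log2 difference of Il13ra1 was 0.05 ± 0.18 at 2 weeks (adjusted p 0.94) and 0.39 ± 0.18 at 4 weeks (adjusted p 0.33). In the fits without 1 library the 4-week difference was 0.17 to 0.53 (adjusted p 0.19 to 0.76). The receptor calls against control are sensitive to single libraries: leaving out any 1 of the 5 libraries ended the Il13ra1 call (adjusted p 0.059 to 0.40), and leaving out control replicate 1, control replicate 3 or MHCII-low replicate 3 ended that of Il4ra (0.17, 0.20 and 0.092). Fitting only these 5 libraries ended both (adjusted p 0.099 for Il4ra and 0.11 for Il13ra1).

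Of 14 other genes of interleukin 4 and interleukin 13 signalling, 11 were tested. Stat6 itself lay between 7079.7 and 10966.3 normalized counts in all libraries, and its log2 difference from control was -0.05 ± 0.18 at 2 weeks (adjusted p 0.95). Il2rg, the common gamma chain that pairs with Il4ra in the other receptor form, had a log2 difference of 0.81 ± 0.22 in 2-week MHCII-low cells (adjusted p 0.058). Socs3, a feedback inhibitor of cytokine signalling, was the 1 gene of the list that rose there (2.44 ± 0.35, adjusted p 0.00023), beside 1.91% of all genes called. It fell again between 2 and 4 weeks in MHCII-low cells (-1.94 ± 0.31, adjusted p 0.0014), where 0.857% of all genes were called. Between the MHCII levels, 2 of the 11, Jak2 and Socs3, were higher in MHCII-high cells in the mean of both times, where 7.21% of all genes passed. These calls were lost in 7 and 8 of 12 fits without 1 library. Socs3 also passed at 4 weeks alone, and that call was lost in 4 of 6 such fits. The ligands were nearly unread: Il13 did not exceed 2.7 normalized counts, and Il4 lay between 0.9 and 28.0. The decoy receptor Il13ra2 had no read in any library.

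Arg1 (ENSMUSG00000019987, chromosome 10, 24915208 to 24927470, reverse strand) encodes the cytosolic arginase. It had the smallest adjusted p of the members between the MHCII levels at 2 weeks and in the mean of both times. At 4 weeks Retnla had a smaller one (0.17 against 0.31). The 2-week MHCII-high libraries held 191.4, 518.5 and 357.9 normalized counts, and the 2-week MHCII-low libraries 29.1, 68.5 and 63.3. These groups did not overlap, and the MHCII-low values lay between the controls (69.7 and 24.1). The ratio of means was 6.64 and the log2 fold change 2.69 ± 0.70 (adjusted p 0.039). Arg1 was the 1 member of 7 that lay higher without overlap here, as did 12.9% of all genes. At 4 weeks the MHCII-high libraries held 39.5, 98.8 and 135.1 and the MHCII-low libraries 52.3, 28.4 and 13.9, so the groups overlapped in 1 library each. The log2 difference was 1.52 ± 0.70 (adjusted p 0.31), or 1.15 ± 0.76 (adjusted p 0.50) without MHCII-high replicate 3. The mean over both times was 2.10 ± 0.50 (adjusted p 0.010). Within MHCII-high cells all 3 libraries at 4 weeks lay below all 3 at 2 weeks, as for 9.06% of all genes, with Il13ra1 the other member to do so. The difference of -2.01 ± 0.70 did not pass in limma (adjusted p 0.18) and did in DESeq2 (-1.95 ± 0.62, adjusted p 0.045). Without 4-week replicate 3 limma gave -2.38 ± 0.76 (adjusted p 0.12). The interaction was -1.17 ± 0.99 (adjusted p 0.94), or -1.53 ± 1.02 (adjusted p 0.78) without that library, so the gap between MHCII levels in Arg1 was not shown to differ between the times.

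The 2-week Arg1 call alone was fragile. Leaving out any 1 of the 6 libraries ended it (adjusted p 0.062 to 0.21), with log2 fold changes of 2.30 to 3.08. The mean over both times passed without each of the 12 libraries (log2 fold change 1.87 to 2.36, adjusted p 0.0043 to 0.043), and stood at 1.92 ± 0.51 (adjusted p 0.025) without replicate 3 of the 4-week MHCII-high cells. With the mitochondrial rRNA share as a covariate it did not pass (1.71 ± 0.63, adjusted p 0.18).

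Arg2, the mitochondrial arginase (ENSMUSG00000021125, chromosome 12, 79130777 to 79156301, forward strand), passed in none of the comparisons. It had 32.3 and 20.7 normalized counts in the controls, and all 12 bleomycin libraries lay above both, between 52.0 and 305.6. Il4ra was the other member with that pattern, and 2.01% of all genes tested had it. The 2-week MHCII-low libraries held 147.7, 90.8 and 54.5 and the 4-week ones 56.6, 131.4 and 100.2. Against the shared controls, the log2 differences were 1.76 ± 0.68 at 2 weeks (adjusted p 0.26) and 1.77 ± 0.68 at 4 weeks (adjusted p 0.70), with ratios of means of 3.69 and 3.63, so neither passed. MHCII-high libraries held 248.5, 305.6 and 129.5 at 2 weeks, partly above the MHCII-low ones, and 52.0, 54.9 and 142.4 at 4 weeks, on either side of the MHCII-low ones. The high-minus-low difference was 1.24 ± 0.61 at 2 weeks (adjusted p 0.34) and -0.29 ± 0.61 at 4 weeks (adjusted p 0.88), or -0.75 ± 0.63 (adjusted p 0.62) without 4-week MHCII-high replicate 3. Arg2 shares its span with Vti1b and Gm48780 on the opposite strand, and since the strand used in counting is not stated, reads of these genes cannot be told apart from its own there.

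Per kb of exon, Arg1 was not the larger arginase throughout. Its level over that of Arg2 was 2.09 and 1.13 in the controls and 0.191, 0.73 and 1.12 in 2-week MHCII-low cells. At 4 weeks the MHCII-low ratio was 0.894, 0.209 and 0.134. In MHCII-high cells it was 0.745, 1.64 and 2.67 at 2 weeks and 0.735, 1.74 and 0.918 at 4 weeks. The MHCII-high and MHCII-low ratios overlapped at both times.

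Nos2, the enzyme on the other arm of arginine use (ENSMUSG00000020826, chromosome 11, 78920787 to 78960254, forward strand), was read in 3 of the 14 libraries and did not enter the test. It had 95.7 normalized counts (186 reads) in replicate 1 of the 2-week MHCII-high cells, 5.1 (13 reads) in control replicate 1 and 1.7 (3 reads) in 2-week MHCII-low replicate 3. In each of the other 11 libraries it had no read, which allows a level of up to 3 reads, or 2.46 to 6.71 normalized counts depending on the depth. This limit covers counting error only, and amplified copies of a molecule count as separate reads. The other 2 libraries of the 2-week MHCII-high group were at 0, so the group mean rests on 1 library. The same library had the highest levels of 2 inflammatory genes named after their values were seen: Ptgs2, the inducible cyclooxygenase (796.0 against 49.9 to 274.7 elsewhere), and Retnlg, a neutrophil-associated relative of Retnla (213.5 against at most 50.8).

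Of 26 other genes of arginine, nitric oxide and polyamine metabolism, 25 were tested. In the mean of both times 2 of these rose in MHCII-high cells and none fell, where 7.21% of all genes passed. They were Gatm, which uses arginine to start creatine synthesis (0.68 ± 0.14, adjusted p 0.0040), and Slc7a7, a chain of the arginine exporter (0.64 ± 0.15, adjusted p 0.010). The median log2 difference of the list was 0.03, beside 0.02 over all genes tested. Slc7a2, the cationic amino acid transporter of activated macrophages, stood at 81087 to 126686 normalized counts in all libraries, and its high-minus-low difference was -0.18 ± 0.13 (adjusted p 0.44). Ass1, which rebuilds arginine from citrulline, had 340.1, 328.5 and 338.8 normalized counts in 2-week MHCII-high cells against 136.5, 63.7 and 191.1 in MHCII-low cells. Its mean difference over both times did not pass (1.38 ± 0.46, adjusted p 0.072). Odc1, which turns ornithine into the polyamine putrescine, differed by 0.03 ± 0.23 (adjusted p 0.96). None of the 25 passed against control at 2 or 4 weeks, where 1.91% and 0.046% of all genes did. Between 2 and 4 weeks none passed either, where 0.857% of all genes did in MHCII-low and 1.07% in MHCII-high cells.

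**Figure D3:**
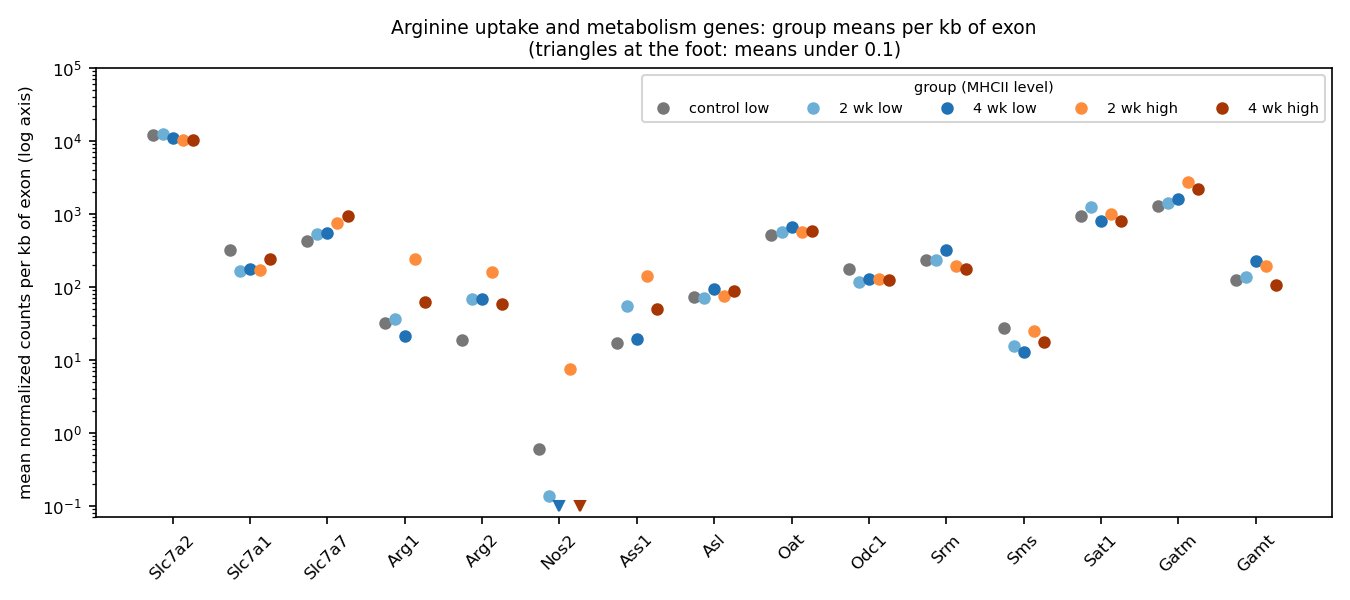
Mean normalized counts per kb of exon (log axis) in the 5 groups for 15 genes of arginine uptake and use, named for their role and not for a test. Slc7a2 is the highest in each group, and Nos2 the lowest, with triangles where its mean is under 0.1.

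Chil3, also called Ym1 (ENSMUSG00000040809, chromosome 3, 106147554 to 106167564, reverse strand), was the member that was lower in MHCII-high cells. It averaged 278000 ± 26300 normalized counts in 2-week MHCII-low and 184000 ± 30400 in 2-week MHCII-high cells (SD, n = 3 each). The MHCII-low libraries held 303546.8, 251120.5 and 279984.5, and the MHCII-high ones 167981.7, 165183.2 and 219199.8, without overlap. It was the 1 member of 7 with that pattern, as were 8.26% of all genes. At 4 weeks the means were 256000 ± 38000 and 203000 ± 36800 (SD, n = 3 each), and the groups overlapped. The log2 difference was -0.60 ± 0.20 at 2 weeks (adjusted p 0.11), -0.34 ± 0.20 at 4 weeks (adjusted p 0.45) and -0.47 ± 0.14 as the mean of both (adjusted p 0.043). That mean did not pass in 8 of the 12 fits without 1 library (adjusted p 0.062 to 0.13 in those), such as without replicate 3 of the 4-week MHCII-high cells (-0.44 ± 0.16, adjusted p 0.10; at 4 weeks alone -0.28 ± 0.24, adjusted p 0.62), nor with the mitochondrial rRNA covariate (-0.42 ± 0.17, adjusted p 0.23).

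Of the controls, at 199883.5 and 163233.9, replicate 1 lay within the range of the MHCII-high libraries and replicate 3 below it. All 6 MHCII-low bleomycin libraries lay above both of them, from 215128.3 to 303546.8. The log2 difference from the shared controls was 0.62 ± 0.22 at 2 weeks (adjusted p 0.21) and 0.49 ± 0.22 at 4 weeks (adjusted p 0.78). In all, 4 of the 7 tested members lay above control without overlap at 2 weeks, Il4ra, Il13ra1, Arg2 and Chil3, and so did 13.7% of all genes. At 4 weeks there were 3, Il4ra, Arg2 and Chil3, and 11.4% of all genes.

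Chil3 has a close relative, Chil4 (Ym2), and 18.5% of the 50-base stretches of its coding transcript are shared with it, so some reads may be counted for either. Chil4 had 25.6 to 71.6 normalized counts, and Chil3 exceeded it 3080 to 7200 times per kb of exon.

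Retnla, the secreted protein RELM-alpha (ENSMUSG00000061100, chromosome 16, 48842552 to 48844461, forward strand), was higher in MHCII-high cells but varied widely within groups. The 2-week MHCII-high libraries held 270.6, 172.8 and 117.3 normalized counts and the MHCII-low ones 147.7, 4.8 and 47.9, with an overlap in 1 library. At 4 weeks the MHCII-high libraries held 482.8, 304.4 and 132.7 and the MHCII-low ones 45.5, 63.7 and 29.9, without overlap. Retnla was the 1 member of 7 higher without overlap at 4 weeks, as were 8.26% of all genes. The log2 difference was 2.35 ± 0.91 at 2 weeks (adjusted p 0.20) and 2.58 ± 0.91 at 4 weeks (adjusted p 0.17), where DESeq2 gave 2.72 ± 0.79 and a call (adjusted p 0.015). The mean of both times was 2.46 ± 0.64 (adjusted p 0.021). The controls, at 7.8 and 43.9, lay within the range of the MHCII-low libraries.

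Counting error is part of that spread, since the lowest value, 4.8 in 2-week MHCII-low replicate 2, rests on 3 reads, and the other libraries had 20 to 526 reads. Retnla's mean of both times passed in 8 of the 12 fits without 1 library (log2 fold change 1.82 to 2.99 over all 12, adjusted p 0.0049 to 0.061). It was lost without 2-week MHCII-high replicate 1 or 2 (adjusted p 0.061 and 0.051), 4-week MHCII-high replicate 1 (0.052) or 4-week MHCII-low replicate 3 (0.056), and held at 2.72 ± 0.66 (adjusted p 0.015) without 4-week MHCII-high replicate 3. The 4-week difference alone was 3.08 ± 0.99 without that library (adjusted p 0.12).

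Tgm2, a protein cross-linking enzyme (ENSMUSG00000037820, chromosome 2, 158116402 to 158146436, reverse strand), did not pass in any of the 8 comparisons. The bleomycin libraries ranged from 11268.7 to 20247.6 normalized counts. Its controls were far apart, at 6779.1 and 15097.6, and 4 of the 12 bleomycin libraries exceeded the higher of them. In 2-week MHCII-low cells the log2 difference from control was 0.68 ± 0.26 (adjusted p 0.25). It was 0.10 ± 0.26 without control replicate 1 (adjusted p 0.95) and 1.26 ± 0.26 without control replicate 3 (adjusted p 0.023), so 1 control library decided the call. The high-minus-low difference was -0.28 ± 0.23 at 2 weeks (adjusted p 0.63) and 0.03 ± 0.23 at 4 weeks (adjusted p 0.98), or -0.08 ± 0.26 (adjusted p 0.93) without 4-week MHCII-high replicate 3. Tgm2 overlaps Rprd1b and Gm20412 on the opposite strand. Among 5 other transglutaminases tested, 1 passed in the mean of both times, where 7.21% of all genes did. It was F13a1, the subunit of coagulation factor XIII that macrophages make, which rose in MHCII-high cells (4.55 ± 0.66, adjusted p 0.00010). F13a1 had 1.7 to 156.9 normalized counts in the MHCII-low bleomycin libraries and 531.9 to 1567.9 in the MHCII-high ones.

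Other genes known for alternative activation also differed between the MHCII levels. In the mean of both times 7.21% of all genes passed. Of 24 tested, 7 rose and 2 fell in MHCII-high cells, with a median log2 difference of 0.26 beside 0.02 over all genes. By smallest p these were Irf4, a transcription factor of the alternative program (2.63 ± 0.21, adjusted p 2.6e-08), Mmp12, the macrophage elastase (2.49 ± 0.20, adjusted p 3.3e-08), and Ccl22, a chemokine for T cells (4.13 ± 0.41, adjusted p 6.2e-07). The other calls, named after their values were seen, were rises of Mgl2 (5.98 ± 0.77), Ccl17 (4.84 ± 0.72), Clec10a (3.89 ± 0.89) and Fn1 (0.96 ± 0.15), and falls of Egr2 (-0.47 ± 0.11) and Pparg (-0.37 ± 0.10). Irf4, Ccl17, Ccl22, Mgl2 and Clec10a are also known from dendritic cells, while Pparg is the factor that maintains alveolar macrophages. Mrc1, the mannose receptor often used as the surface marker of the state, had a difference of -0.38 ± 0.12 that did not pass (adjusted p 0.063). The fall of Pparg was lost in 6 of 12 fits without 1 library, and the other 8 calls were kept in all 12.

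Genes of classical activation were among the rises in the mean of both times too, where 7.21% of all genes passed. Of 18 tested, 4 rose in MHCII-high cells in the mean of both times and none fell: Cd86 (1.60 ± 0.25, adjusted p 0.00019) and Cd40 (4.53 ± 0.80, adjusted p 0.00084), which costimulate T cells, Slc7a11, a cystine importer (1.22 ± 0.21, adjusted p 0.00068), and the cytokine gene Il1b (0.75 ± 0.21, adjusted p 0.033). The Il1b call was lost in 7 of 12 fits without 1 library. In 2-week MHCII-low cells against control, 3 of 24 alternative activation genes rose and 1 fell, where 1.91% of all genes passed. Fn1, encoding fibronectin (2.82 ± 0.23, adjusted p 2.0e-07), Mmp12 (3.18 ± 0.32, adjusted p 2.3e-06) and Ch25h (1.37 ± 0.33, adjusted p 0.029) were higher. The scavenger receptor gene Cd36 was lower (-1.33 ± 0.26, adjusted p 0.0062). Ch25h no longer passed when any 1 of the 5 libraries was left out (adjusted p up to 0.47), nor did Cd36 without control replicate 1 (0.20), while Fn1 and Mmp12 passed without each of them. At 4 weeks none of the 24 alternative activation genes passed against control, where 0.046% of all genes did. All 5 lists, like the members, were put together with earlier results of these data known, so their counts are a description.

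**Figure D4:**
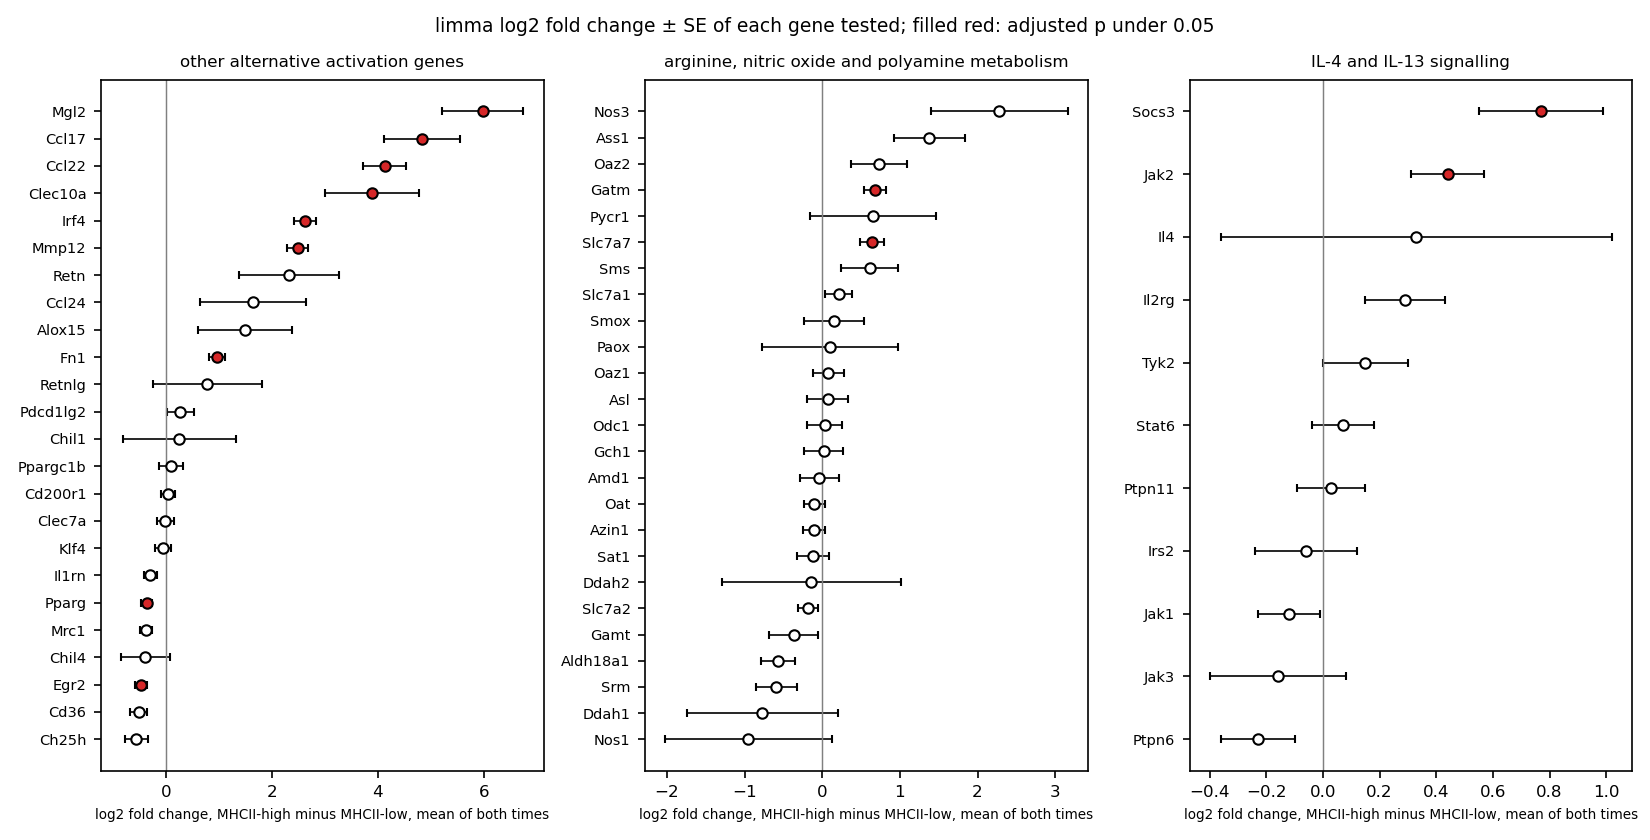
limma log2 fold change with its standard error, MHCII-high minus MHCII-low as the mean of both times (x axis, a separate scale per panel), for the tested genes of 3 lists (y axis). Filled red points have an adjusted p under 0.05, 9 among the alternative activation genes and 2 in each of the other lists.

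Markers of other cells moved with MHCII level. Summed over 9 genes, monocyte-derived macrophage markers lay at 35782 to 46464 normalized counts in 2-week MHCII-high and 7094 to 10901 in 2-week MHCII-low libraries, at 18012 to 19258 and 3661 to 4310 at 4 weeks, and at 3255 to 3967 in controls. Over 6 dendritic cell markers the sums were 731.5 to 1852 against 57.8 to 140.1 at 2 weeks and 816.7 to 1853 against 67.1 to 142.3 at 4 weeks. The 5 B lymphocyte markers summed to 260.6 to 692.5 against 9.6 to 49.2 at 2 weeks and 427.2 to 894.9 against 4.3 to 60.0 at 4 weeks. Summed over 10 genes, alveolar macrophage markers were lower in MHCII-high libraries. The sums were 172624 to 196008 against 245506 to 289342 at 2 weeks and 188845 to 205330 against 218741 to 253042 at 4 weeks. Mrc1 was the largest part of each sum, and Itgax, Fabp4 and Ear2 overlapped between the MHCII levels at both times. T lymphocyte markers, mostly Cd2, were lower too, at 5071 to 6547 against 8976 to 11984 and at 7828 to 7984 against 10333 to 11894. The sum of group 2 innate lymphoid markers was higher, at 2270 to 3303 against 713.4 to 915.2 at 2 weeks and 1148 to 1840 against 204.1 to 408.3 at 4 weeks. This came from Il7r and Il1rl1, the most abundant of them. Gata3 and Areg overlapped between the MHCII levels at both times, and Il5 was at 0 in all libraries. Further lists differed without overlap at 1 time. Alveolar type 2 markers were higher at 2 weeks (10824 to 16493 against 5435 to 7563), though Abca3 of that list overlapped. Endothelial markers were higher at 4 weeks (3280 to 4286 against 1767 to 2801). Vwf was the largest part of each endothelial sum, and Cdh5, Pecam1, Tek and Cldn5 overlapped. The neutrophil sum, mostly Mmp8, Csf3r and Cxcr2, was lower at 2 weeks (10421 to 14087 against 14202 to 15539). S100a8 of that list went the other way at 2 weeks (328.4 to 396.5 against 130.6 to 321.6). Club and ciliated cell markers were lower at 4 weeks (4925 to 9212 against 25859 to 36168), though Foxj1 of that list overlapped. Eosinophil, basophil and mast cell, and fibroblast sums overlapped at both times. Of the 5 eosinophil genes, which are of interest since eosinophils carry SiglecF, Prg2 and Prg3 were at 0 in all libraries and Ccr3, Il5ra and Epx were not, with sums of 62.6 to 229.5 against 34.1 to 69.4 at 2 weeks and 35.3 to 131.1 against 20.3 to 71.5 at 4 weeks. The part of these cells in the differences of Arg1, Retnla and Chil3 was not tested. In bulk libraries, fewer cells of a type and less RNA per cell cannot be told apart.

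The genes most like each member over the 14 libraries differed between members. By Pearson r of log2 values among 11383 genes, the nearest to Arg1 was Ankle2 (0.909), to Arg2 Tnfaip8l3 (0.843), to Chil3 Osbpl9 (0.905) and to Retnla Mfsd6 (0.925). For Il4ra it was Atp6v0a1 (0.920), a subunit of the vacuolar proton pump, followed by Atp6v0e (0.894), another subunit of it. For Il13ra1 it was Cd93 (0.940), followed by Tlr13 (0.939), an endosomal sensor of bacterial RNA, and for Tgm2 it was Ldha (0.926), lactate dehydrogenase A. These values describe 14 libraries that share groups, depth and scaling, and the highest of 11383 correlations is high by selection.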

How the data were processed

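The deposited values are normalized counts per gene, a signal that the authors scaled from their gene counts, per the file headers. STAR, DESeq2 and the build mm10 are named in the submitters' processing notes without versions or roles. Deposited GC percent, exon length and coordinates were used as the authors gave them. Each column was read as whole multiples of the worth of 1 read (0.39 to 2.237 normalized counts). Of the nonzero low values from which this worth was estimated, 99.76% to 100% came out as whole reads within the rounding of 0.05. Higher values were rounded to whole reads and were not part of this share. These reads are used for depth and as an alternative. In control replicate 1 the step is so small that rounding is a large part of it.

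Groups were taken from the labels, and the 8 members, 5 gene lists and marker lists were chosen with earlier results of these data known. A gene was tested where 2 or more libraries had at least 10 normalized counts. The test was limma 3.58.1 in R 4.3.3 with the trend option of eBayes, run on log2(value + 1) over 14 libraries in 5 groups. A pseudocount of 1 understates changes of low genes. P-values were adjusted by Benjamini-Hochberg over 17390 genes per comparison, 8 comparisons in all. Log2 fold changes carry their SE after the ± sign. The fit was tested on simulated data. Besides the members, genes were named by the 3 smallest p-values of each list and as relatives of members, and likeness by Pearson r among genes with at least 100 normalized counts in 2 libraries. Motifs were searched in RefSeq promoters of GRCm38.p6. Alternatives were pseudocounts of 0.5 and 5, no filter or a CPM of 5 in 2 libraries, TMM factors, library totals, edgeR 4.0.16 and DESeq2 1.42.0 on recovered reads, only the groups compared, a mitochondrial rRNA covariate, removal of the GC trend, a replicate block and leaving out each library. Where leaving out a control left 1, that library was assumed to vary like the other groups.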

Additional observations from a re-analysis of the deposited data

How the results depend on the processing

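No member changed direction where it was called. Over the 7 tested members and 8 comparisons, 379 of the values without 1 library kept their side of the threshold, 26 lost a call and 1 gained one, and under the other settings 651 kept it, 14 lost a call and 7 gained one. For MHCII-high against MHCII-low at 2 weeks, the 1 member called became 2 with DESeq2 and with the GC trend removed, and 0 with library totals, with the mitochondrial rRNA covariate, without a filter, with only the groups compared, and without any 1 library (0 to 0). At 4 weeks DESeq2 called 1 member in place of 0. For the mean of both times, the 3 members called became 1 with the mitochondrial rRNA covariate and without a filter, and 1 to 3 without 1 library. For 2-week MHCII-low cells against control, the 2 called became 1 with library totals, with the covariate and without a filter, 0 with only the groups compared, and 0 to 1 without 1 library. In that comparison Chil3, not called in the main fit, was higher in all 12 other settings and passed in 2 of them. DESeq2 called 1 member in place of 0 at 4 weeks against control and 1 in place of 0 between the times in MHCII-high cells. The cause of these changes was not tested, except that no filter adds genes to the adjustment and that leaving out libraries or groups leaves fewer to estimate the spread.

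With the replicate block, 0 members were called between the MHCII levels at 2 weeks in place of 1 (Arg1, adjusted p 0.064). The labels do not say whether same-numbered high and low libraries came from the same mice. Deviations from the group means correlated at 0.009 to 0.107 between same-numbered high and low libraries, over 0.1 in 1 of 6 pairs. Those of different numbers correlated at -0.124 to 0.077. This check did not show pairing, but with 3 libraries per group it cannot exclude it.

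Over all genes, 499 calls between the MHCII levels at 2 weeks became 1055 with DESeq2, 207 with the covariate, 316 without a filter and 311 with only the groups compared. The 434 calls at 4 weeks became 911 with DESeq2, 282 without a filter and 56 with only the groups compared, and the 1254 of the mean 2122 with DESeq2 and 500 with the covariate. Against control, 332 became 665, 213 (covariate) and 36 (groups compared) at 2 weeks, and 8 became 74 with DESeq2, 65 without a filter, 16 with the replicate block, 13 with the CPM filter, 2 with edgeR or the covariate and 0 with only the groups compared. Between the times, 149 calls in MHCII-low cells became 320, 93 (library totals) and 15 (groups compared), and 186 in MHCII-high cells became 638, 112 (edgeR), 99 (library totals), 103 (no filter) and 0 (groups compared). Without 1 library the counts were 203 to 455, 266 to 480, 853 to 1399, 127 to 308, 1 to 8, 95 to 138 and 64 to 299 in that order. Library totals moved the median log2 difference of all genes by over 0.1, from 0.08 to -0.07 between the MHCII levels at 2 weeks, from -0.03 to -0.17 at 4 weeks and from 0.02 to -0.13 in the mean of both, from -0.06 to 0.07 at 4 weeks against control, and between the times from 0.03 to 0.18 in MHCII-low and from -0.07 to 0.08 in MHCII-high cells, and the called members kept their direction and call there except Arg1 at 2 weeks and Il4ra against control. Depth limits Arg1, Arg2, Retnla and Nos2 most, since their lowest values rest on 13, 24, 3 and 0 reads.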
